A study of Mus musculus with 2 samples.

Results

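Efemp1 encodes fibulin-3, a secreted glycoprotein of elastic fibres and basement membranes. It was examined here with 9 other elastic fibre genes, namely Efemp2, Fbln1, Fbln2, Fbln5, Eln, Fbn1, Fbn2, Mfap4 and Mfap5, in mRNA-seq of mouse embryonic fibroblasts (MEFs) with and without normal DNA methylation. The set was chosen by the measured values themselves, because Efemp1 had the lowest value in Dnmt1-/- relative to Dnmt1+/+ MEFs of any gene that passed the filters. Each of the 10 genes had a single entry among the 29126 entries of the deposited table, and 9 of them passed the filters, as did 11244 entries in all. The entry of Eln did not pass.

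The series holds 1 library for each of the Dnmt1+/+ and Dnmt1-/- genotypes, each from 1 cell line. The cells called Dnmt1-/- carry a hypomorphic allele of Dnmt1, the maintenance DNA methyltransferase, in homozygous form. Both lines lack p53 through homozygous null alleles of Trp53, and the labels give the strain as unknown and no age or sex. The lines were cultured under standard conditions, with no treatment. The question behind the comparison was how loss of DNA methylation alters gene expression in somatic cells. Dnmt1 had an RPKM (reads per kilobase of transcript, scaled to the mapped reads of the library) of 65.2 in Dnmt1+/+ and 14.5 in Dnmt1-/- MEFs. RNA of Trp53 was present in both, at 18.6 and 19.9 RPKM.

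The lines also differed in sex-linked RNA. Xist, the RNA that coats the inactive X, was at 0.00648 RPKM in Dnmt1+/+ and 37.0 in Dnmt1-/-, while Y-linked Eif2s3y was at 18.8 RPKM in Dnmt1+/+ and listed at 0 in Dnmt1-/-. With 1 line of each genotype, the effects of Dnmt1 and of other differences between the lines cannot be told apart. There are no replicates, so no spread between samples could be estimated and no p-value is given. Fewer cells of a type and less RNA per cell also cannot be told apart.

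The labelled cell type was checked against 40 markers. All 12 fibroblast markers had at least 1 RPKM in either library or in both, among them Vim at 2269 and 1873 RPKM, and their summed RPKM was 6282 in Dnmt1+/+ and 5444 in Dnmt1-/-. Of these markers 3 were more than 2-fold higher in Dnmt1-/-, S100a4 at 289.6 and 1262 RPKM, Pdgfra at 6.95 and 18.7, and Twist2 at 8.96 and 22.7. Another 2 were more than 2-fold lower, Col1a2 at 1241 and 475.9 RPKM and Thy1 at 4.84 and 0.129. The fibroblast shares were thus 25% on the higher side, beside 8.47% for the whole table after filtering. On the lower side they were 16.7%, beside 10.9%. None of 5 endothelial markers reached 1 RPKM, with sums of 0.461 and 0.679, and of 6 epithelial markers only the joint entry of Krt14 and Krt17 did, with sums of 0.363 and 2.19. The sum of 6 haematopoietic markers was 2.18 in Dnmt1+/+ and 13.0 in Dnmt1-/-. The 3 of them that passed the filters were all more than 2-fold higher in Dnmt1-/-. They were Csf1r at 0.0702 and 6.08 RPKM, Cd68 at 0.596 and 3.63, and Cd14 at 1.51 and 3.23. Csf1r and Cd68 reached 1 RPKM only in Dnmt1-/-, so passing the filters already required them to be higher there. Cd14 was within 2-fold with a pseudocount of 1. Ptprc and Laptm5 were listed at 0 in both libraries. Of 6 smooth muscle markers, whose cells make much elastin, 4 reached 1 RPKM, and the sum of the 6 was 2056 and 2144. Smtn, at 19.6 and 56.9 RPKM, and 1 of the 2 entries of Cnn1, at 60.2 and 134.2, were more than 2-fold higher in Dnmt1-/-. They made up 40% of the 5 smooth muscle entries that passed the filters, where the share for the whole table was 8.47%. The sum of 5 cartilage markers was 14.7 and 5.48, with Acan and Matn1 at or near 0. Sox9, at 8.28 and 5.41 RPKM, was within 2-fold. Col2a1, at 6.40 and 0.0661 RPKM, was more than 2-fold lower and passed the filters only through Dnmt1+/+. It was 1 of 2 cartilage entries that passed (50%), beside 10.9% for the whole table. The part of these differences in the results that follow was not tested.

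Elastic fibres give skin, arteries and lung their recoil. They form when tropoelastin, the product of Eln, is deposited on a scaffold of microfibrils made mainly of fibrillins, and is then cross-linked by lysyl oxidases. Fibulins bind tropoelastin, fibrillin and the cross-linking enzymes, and microfibril-associated proteins decorate the scaffold, which also stores growth factors of the TGF-beta family. Fibroblasts and smooth muscle cells are main sources of these proteins.

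Efemp1 had an RPKM of 154.7 in the Dnmt1+/+ library and 0.00975 in the Dnmt1-/- library. In Dnmt1+/+ MEFs it was the highest of the 10 genes and stood at rank 348 of the 11244 entries by level, and in Dnmt1-/- MEFs it was at rank 11182. Of 627 entries with at least 100 RPKM in Dnmt1+/+, 2 were below 1 RPKM in Dnmt1-/-, Efemp1 and Grb10. The difference on the log2(RPKM + 0.1) scale, Dnmt1-/- minus Dnmt1+/+, was -10.46, and on this scale low RPKM values give smaller differences than their ratio would. The median difference of all 11244 entries was -0.14, and relative to this shift Efemp1 was at -10.32.

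The depth behind these values was estimated from the values themselves, after they had been seen. For genes with 1 annotated transcript, low values of RPKM multiplied by transcript length gathered at a lowest step and again at its multiple, as whole reads would give. The step corresponds to about 54200000 reads in Dnmt1+/+ and 59900000 in Dnmt1-/-. At these depths the value of Efemp1 stands for about 17100 reads in Dnmt1+/+ and about 1 read in Dnmt1-/-. The ratio of the RPKM values was 15900, with an exact 95% binomial interval from 3390 to 746000 on these estimated reads. The interval covers counting error only. It leaves out that Efemp1 was chosen for its fall and that the reads were estimated with its longest transcript. Efemp1 in Dnmt1-/- MEFs was thus at the limit of detection, and the size of its ratio is poorly determined.

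Efemp1 lies on the plus strand of chromosome 11 in NCBI37 (mm9), from 28753204 to 28826743. The annotation gives it 4 transcripts, the longest of 2037 bases in 11 exons, and no other annotated gene overlaps it. No entry without a gene symbol fell in its locus either. In the same build Fbln1 lies on chromosome 15 from 85036379 to 85116965 and Fbln2 on chromosome 6 from 91162449 to 91222534, both on the plus strand and without an overlapping annotated gene. Fbn2 lies on chromosome 18 from 58168277 to 58369580 on the minus strand.

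The fibulins carried most of the RNA of the 10 genes in both libraries, but their order differed (see the plot of levels by gene). The 5 fibulin genes held 88.1% of the summed RPKM of the 10 genes in Dnmt1+/+ and 93.7% in Dnmt1-/-. Fbln2, a large fibulin that binds fibronectin and tropoelastin, was at 88.6 RPKM in Dnmt1+/+ and 355.7 in Dnmt1-/-, 4.01-fold higher in Dnmt1-/-. There it was the highest of the 10 genes, at rank 115 of all entries.

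Fbln1, which encodes a fibulin of elastic fibres and basement membranes that also binds fibronectin, differed the other way. It was at 56.3 RPKM in Dnmt1+/+ and 7.43 in Dnmt1-/-, a log2 difference of -2.91. The fibulins with the best established need in elastic fibre assembly differed less. Efemp2 encodes fibulin-4, which helps to bring lysyl oxidase to tropoelastin, and was at 78.2 and 96.5 RPKM, a log2 difference of 0.30. Fbln5 encodes fibulin-5, which links tropoelastin to microfibrils and to integrins at the cell surface, and was at 16.3 and 22.9 RPKM, a log2 difference of 0.49.

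**Figure D1:**
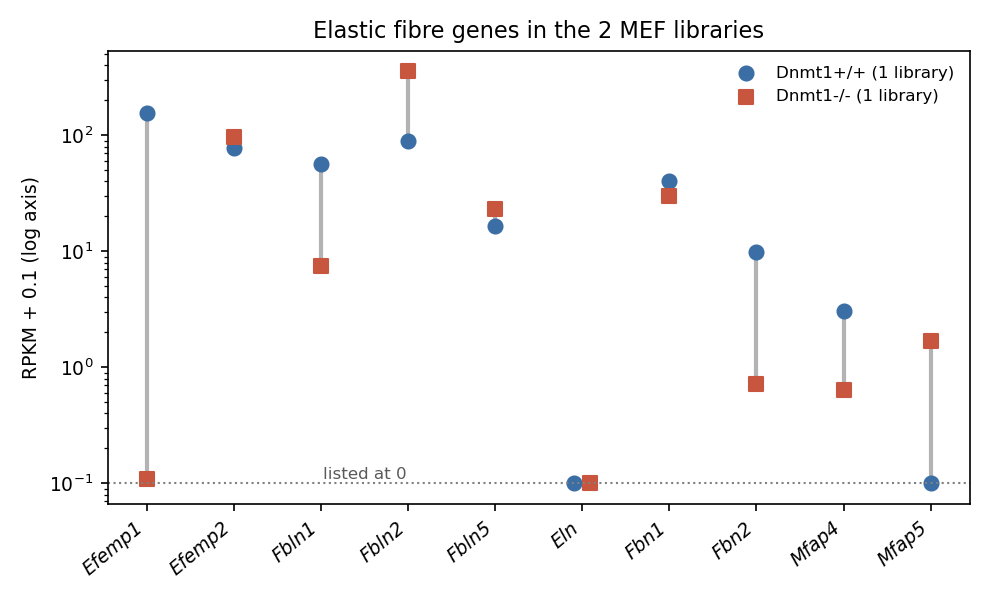
RPKM + 0.1 on a log axis for each of the 10 elastic fibre genes, with a circle for the Dnmt1+/+ library and a square for the Dnmt1-/- library joined by a grey line. Efemp1 spans the widest range, from 154.7 RPKM to 0.00975 RPKM, Fbln2 is higher in Dnmt1-/-, and Eln lies at the line for entries listed at 0 in both libraries.

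The summed RPKM of the 10 genes was 447.5 in Dnmt1+/+ and 514.9 in Dnmt1-/-, so the sum was not lower without Efemp1 RNA. Efemp1 made up 34.6% of this sum in Dnmt1+/+ and 0.00189% in Dnmt1-/-. Fbln2 made up 19.8% and 69.1%, and Efemp2 17.5% and 18.7%. Fbln1 went from 12.6% to 1.44% of the sum. In Dnmt1+/+ MEFs the sum was thus spread over several fibulins, and in Dnmt1-/- MEFs most of it was Fbln2.

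**Figure D2:**
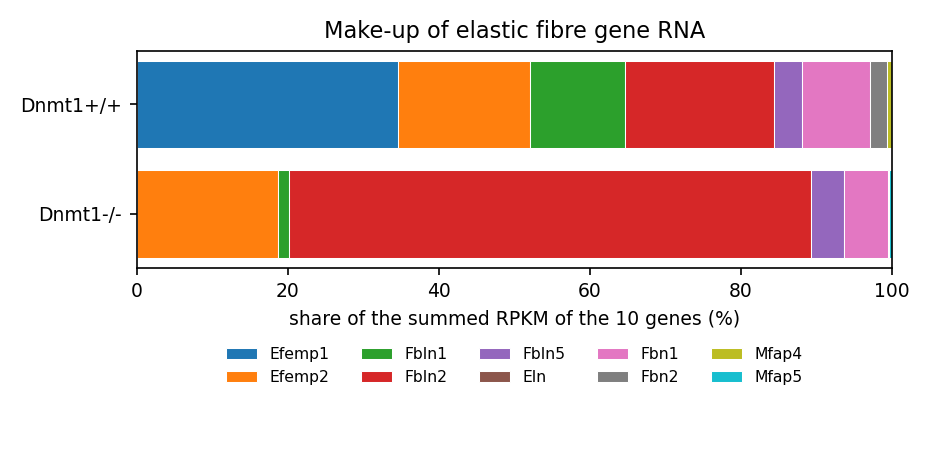
Stacked bars of the share, in percent, that each of the 10 genes holds of their summed RPKM, with 1 bar for each library. Efemp1 fills 34.6% of the Dnmt1+/+ bar and is not visible in the Dnmt1-/- bar, where Fbln2 fills 69.1%.

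Fibrillins, the main proteins of microfibrils, showed a similar contrast between family members. Fbn1, the gene mutated in Marfan syndrome, was at 40.6 RPKM in Dnmt1+/+ and 29.6 in Dnmt1-/-, a log2 difference of -0.46. Fbn2, whose product is found mostly in microfibrils of developing tissue, was at 9.78 and 0.612 RPKM, a log2 difference of -3.79. Fbn1 was therefore the higher fibrillin in both libraries. Its values carry some doubt, because Gm9913 is annotated within it on the opposite strand and 1 entry without a symbol shares its locus, and the use of strand in the authors' counting is not given in the sources used here.

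Among genes for microfibril-associated proteins, Mfap4, which encodes a fibrinogen-related protein that binds tropoelastin and fibrillin, was at 2.95 RPKM in Dnmt1+/+ and 0.542 in Dnmt1-/-, a log2 difference of -2.25. The annotated end of Mfap4 overlaps that of Mapk7 on the opposite strand, and Mapk7 was at 11.9 and 12.7 RPKM. Mfap5 encodes MAGP-2, a small glycoprotein that binds fibrillins. Its RPKM was listed at 0 in Dnmt1+/+, against 1.59, or about 237 reads by the estimate above, in Dnmt1-/-. A value of 0 can also be a failed estimate, so absence of Mfap5 RNA in Dnmt1+/+ is not shown. The gene passed the filters only through Dnmt1-/-. Mfap5 was thus listed at 0 together with Eln in Dnmt1+/+, and in Dnmt1-/- it stood above Mfap4, Fbn2 and Efemp1.

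Eln, the gene for tropoelastin itself, was listed at 0 in both libraries with the status NOTEST, which Cuffdiff gives entries it did not test. Of the 5946 entries with a gene symbol and this status, 4252 were listed at 0 in both libraries. An entry listed at 0 can also be a failed estimate, so these values do not show that Eln RNA was absent. RNA of the scaffold and of assembly proteins was thus measured in both libraries while no RNA was listed for the core protein.

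Counted over the 9 genes that passed, 4 were more than 2-fold lower in Dnmt1-/- MEFs (Efemp1, Fbn2, Fbln1 and Mfap4), 2 more than 2-fold higher (Fbln2 and Mfap5), and 3 within 2-fold (Efemp2, Fbln5 and Fbn1). Over all 11244 entries the share past 2-fold was 10.9% on the lower side and 8.47% on the higher side. Since the set was chosen for the fall of Efemp1 in this same contrast, nothing is read from the difference between these shares. Efemp1, Fbn2 and Mfap4 also passed the filters only through Dnmt1+/+, and Mfap5 only through Dnmt1-/-. The median log2 difference of the 9 genes was -0.46, against -0.14 for all entries. It was -1.45 with no pseudocount and -1.35 with a mean of at least 1 RPKM required, where Mfap5 drops out and 1 gene was higher. Without Efemp1 it was -0.08, with 3 genes lower and 2 higher. All 9 genes stayed on the same side of the 2-fold threshold when the median of all entries was subtracted.

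**Figure D3:**
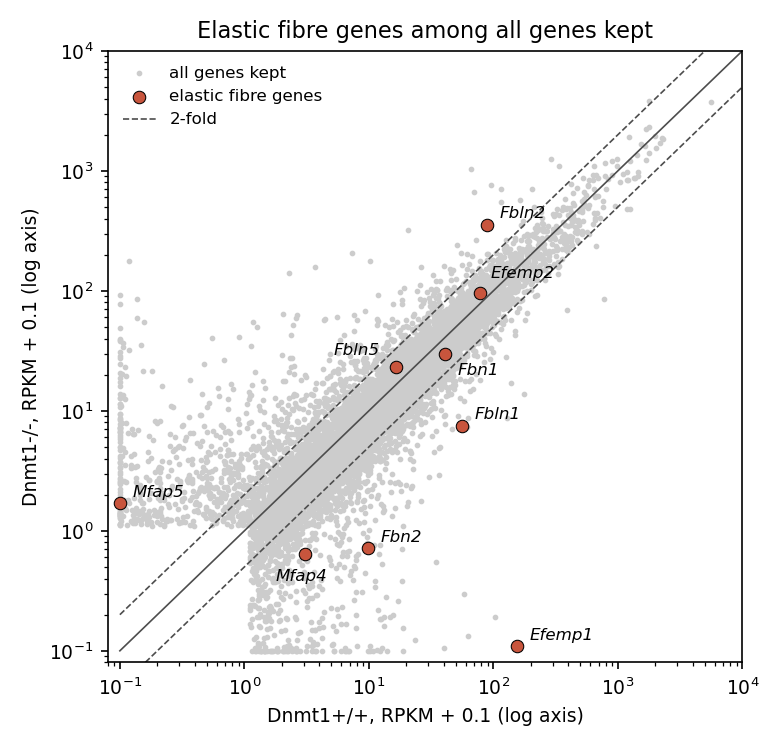
RPKM + 0.1 of every entry kept, Dnmt1+/+ on the x axis and Dnmt1-/- on the y axis, both log axes, with the 9 elastic fibre genes that passed the filters in red, the line of equality solid and the 2-fold lines dashed. Efemp1 lies at the lower right edge of all 11244 entries, Fbln2 above the upper dashed line, and Efemp2, Fbln5 and Fbn1 between the dashed lines.

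The genes with the most similar pair of values to Efemp1 were Grb10, Gnai1, AW551984, Slc38a4 and Dync1i1, by distance over the 2 libraries on the log2(RPKM + 0.1) scale. The nearest, Grb10, encodes an adaptor that restrains growth factor signalling and is imprinted. It was at 102.7 and 0.0907 RPKM, at a distance of 0.99 from Efemp1. Gnai1, which encodes a subunit of an inhibitory G protein, was at 62.1 and 0.0317 RPKM and a distance of 1.34. The distances of AW551984, Slc38a4 and Dync1i1 were 1.95, 2.01 and 2.72. Of these 5 genes, Grb10 shares chromosome 11 with Efemp1, and none belongs to the elastic fibre.

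Of the 6 genes nearest to Efemp1, 3 passed the filters, and their log2 differences lay between -1.02 and 0.89. On the side of lower coordinates the nearest entries, Mir217, Mir216a and Mir216b, were listed at 0 in both libraries, and the nearest gene that passed the filters, Vrk2, lay 2260 kb away, at 8.33 and 7.60 RPKM. On the other side Pnpt1, 203 kb away, was at 21.0 and 39.0 RPKM, a log2 difference of 0.89. Smek2, 245 kb away, was at 13.6 and 6.65 RPKM, a log2 difference of -1.02, and Ccdc104, 295 kb away, was at 39.7 and 34.9. When the median of all entries was subtracted, Smek2 was at -0.88 and within 2-fold, and Pnpt1 was at 1.03 and past 2-fold higher.

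The same was asked of the other 5 elastic fibre genes that differed more than 4-fold. The neighbours of Fbln1, Fbln2 and Fbn2 that passed the filters, 2, 4 and 2 of 6 each, differed by less than 2-fold, except that Iqsec1 beside Fbln2, at 11.2 and 22.2 RPKM, was past 2-fold higher when the median of all entries was subtracted. For Mfap5, 1 of 2 such neighbours, M6pr, was more than 2-fold higher, at 23.6 and 49.5 RPKM. On the side of higher coordinates none of the 3 genes nearest to Mfap5 passed the filters. The nearest that did, Slc2a3, 199 kb away, was more than 2-fold lower, at 1.26 and 0.448 RPKM, and passed only through Dnmt1+/+. For Mfap4, 3 of 4 neighbours that passed were within 2-fold. The other, Slc47a1, a transporter gene 87.6 kb away, was at 18.7 RPKM in Dnmt1-/- and listed at 0 in Dnmt1+/+. No neighbour that passed was more than 2-fold lower beside Fbln1, Fbn2 or Mfap4. For the whole table these shares were 10.9% lower and 8.47% higher, and 2 to 4 neighbours per gene are too few for a comparison. The 10 elastic fibre genes themselves lie on 8 chromosomes.

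**Figure D4:**
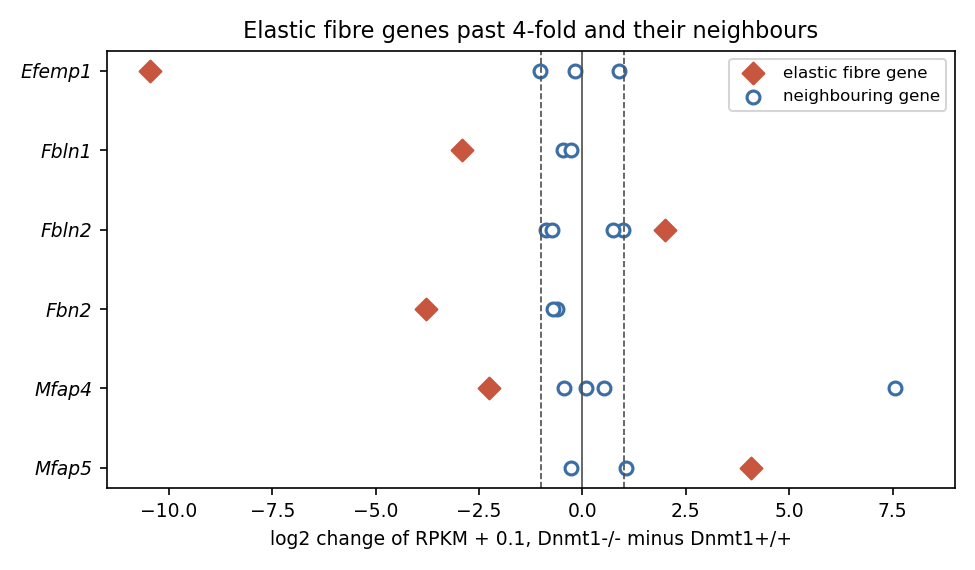
Log2 difference of RPKM + 0.1, Dnmt1-/- minus Dnmt1+/+, on the x axis, for the 6 elastic fibre genes past 4-fold (diamonds) and for those of the 3 nearest genes on either side that passed the filters (open circles), with dashed lines at 2-fold. The circle farthest to the right, beside Mfap4, is Slc47a1, and the neighbours of Efemp1 lie between -1.02 and 0.89.

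DNA methylation in mammals is placed mainly on C followed by G, and so the CG content of the promoters was described. RefSeq promoter windows, from 250 bases before to 50 bases after a gene's start, were matched by symbol for 6 of the 10 genes (Efemp1, Efemp2, Fbln1, Fbln2, Fbln5 and Fbn1). The windows of the 3 genes past 2-fold are shown, the first listed where a gene has several, to let their CG positions be compared. They are written 5′ to 3′ on the plus strand of GRCm38.p6, the strand of all 3 genes, with each CG in capitals. The coordinates are those of that build and not of mm9, and the windows are chr11:28852955-28853254 for Efemp1, chr15:85205699-85205998 for Fbln1 and chr6:91212514-91212813 for Fbln2.
Efemp1: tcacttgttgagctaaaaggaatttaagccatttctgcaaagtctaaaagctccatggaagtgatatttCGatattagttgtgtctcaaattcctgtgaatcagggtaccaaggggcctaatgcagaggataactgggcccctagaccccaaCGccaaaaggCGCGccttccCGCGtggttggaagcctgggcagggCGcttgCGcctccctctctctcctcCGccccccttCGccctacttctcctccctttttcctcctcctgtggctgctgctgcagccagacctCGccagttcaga
Fbln1: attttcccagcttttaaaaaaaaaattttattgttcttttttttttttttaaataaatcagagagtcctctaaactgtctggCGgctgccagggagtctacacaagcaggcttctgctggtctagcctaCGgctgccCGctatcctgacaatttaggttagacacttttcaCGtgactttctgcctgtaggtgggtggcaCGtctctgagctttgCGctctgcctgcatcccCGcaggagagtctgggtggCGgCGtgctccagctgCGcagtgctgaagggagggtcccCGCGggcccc
Fbln2: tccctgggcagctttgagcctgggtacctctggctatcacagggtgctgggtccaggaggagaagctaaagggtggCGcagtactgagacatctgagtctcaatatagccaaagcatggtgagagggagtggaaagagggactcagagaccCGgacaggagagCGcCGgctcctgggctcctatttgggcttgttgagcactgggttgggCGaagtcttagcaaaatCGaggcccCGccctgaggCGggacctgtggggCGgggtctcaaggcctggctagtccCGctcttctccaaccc

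These windows held 11 CG in Efemp1, 12 in Fbln1 and 10 in Fbln2. Over all 32851 windows of this length the median was 7 CG, with quartiles of 3 and 20, and 94.6% held at least 1. As many or more were found in 41.4% of windows for Efemp1, 39.6% for Fbln1 and 43.5% for Fbln2. The other window of Fbln1 held 24 CG, and as many or more were found in 20% of windows. Which window of Fbln1 belongs to the measured entry was not determined. The 3 windows of Efemp2 held 16, 35 and 41 CG, those of Fbln5 24 and 8, and that of Fbn1 14. Methylation of these windows was not analysed here.

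Among 66 other genes that build, bind or degrade elastic fibres, 64 were found in the table, and 51 of them, in 52 entries, passed the filters. Of the 52 entries 12 (23.1%) were more than 2-fold lower in Dnmt1-/-, beside 10.9% of all entries, and 5 (9.62%) more than 2-fold higher, beside 8.47% of all entries. Their median log2 difference was -0.08. When the median of all entries was subtracted, 10 were higher and 12 lower, so that the share of higher among the calls moved from 29.4% to 45.5%. Of all entries 8.58% were then lower and 9.71% higher. With the upper quartiles of the libraries made equal, 8 were higher and 12 lower. Of the lower entries, Mfap2, Adamts17, Adamtsl1, Itga8, Itgb8, Slc2a10 and Cela1 passed the filters only through Dnmt1+/+. Of the higher entries, Fbln7 and Tnxb passed only through Dnmt1-/-. The lists were chosen with earlier results of these data known, so nothing is read from these shares, or from those of single lists below.

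Close relatives of the 10 genes were found on both sides. Mfap2 encodes MAGP-1, the best known microfibril-associated glycoprotein, and was at 12.2 RPKM in Dnmt1+/+ and 0.0837 in Dnmt1-/-, a log2 difference of -6.07. Mfap3 was at 8.85 and 7.51 RPKM. Fbln7, the other fibulin gene that passed, was at 0.268 and 18.1 RPKM, a log2 difference of 5.63, while Hmcn1, which encodes a giant fibulin, stayed under 1 RPKM in both. Among the fibulins that passed, Efemp1 and Fbln1 were lower and Fbln2 and Fbln7 higher. Efemp1, Mfap2 and Fbln7 passed the filters only through the library where each was high, and the set was chosen for the fall of Efemp1.

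Genes of the cross-linking step all passed the filters and differed by less than 2-fold, except that Lox passed this threshold under other scalings. The 5 lysyl oxidase genes had a median log2 difference of 0.27. Lox, the best known of them, was at 104.3 and 205.7 RPKM, a log2 difference of 0.98, which was past 2-fold when the median of all entries was subtracted or the upper quartiles were made equal. Loxl1 was at 70.6 and 51.5 RPKM and Loxl2 at 95.7 and 64.9. The emilins, glycoproteins at the interface of elastin and microfibrils, also stayed within 2-fold, with Emilin1 at 62.4 and 57.5 RPKM.

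Latent TGF-beta binding proteins tether growth factors to microfibrils. Ltbp2, which binds fibrillin-1 but not latent TGF-beta, had 2 entries at the same locus, at 2.22 and 27.3 RPKM and at 2.26 and 23.1 RPKM, both more than 2-fold higher in Dnmt1-/-. Ltbp1, Ltbp3 and Ltbp4 were within 2-fold. None of the 3 TGF-beta ligand genes passed 2-fold, but Tgfb1, at 13.0 and 24.6 RPKM, and Tgfb2, at 4.66 and 9.28, did so when the median of all entries was subtracted.

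Of 7 ADAMTS and ADAMTS-like genes that passed, whose products bind or process fibrillin microfibrils, 4 were more than 2-fold lower, where 10.9% of all entries were. Adamts17 was at 3.10 and 0.160 RPKM, Adamts10 at 8.23 and 3.64, and Adamts6 at 3.48 and 1.49. Adamtsl1 had a log2 difference of -3.51 and was at 0.00648 RPKM in Dnmt1-/-. Adamts10 and Adamts6 fall back within 2-fold with a pseudocount of 1. Adamtsl5, at 3.03 and 6.03 RPKM, was higher past 2-fold when the median of all entries was subtracted or the upper quartiles were made equal.

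Of 10 genes of tropoelastin secretion or cutis laxa that passed, 3 were more than 2-fold lower, again beside 10.9% of all entries. Pycr1 and Aldh18a1, which encode enzymes of proline synthesis, were at 25.8 and 6.05 RPKM and at 104.1 and 41.8 RPKM. Slc2a10, a transporter gene mutated in arterial tortuosity syndrome, was at 4.01 and 0.290 RPKM. Fkbp10, which encodes a tropoelastin chaperone, was at 75.6 and 86.1 RPKM.

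Integrin genes for receptors of elastic fibre proteins showed both directions. Itga8 was at 2.01 and 0.0487 RPKM and Itgb8, whose product activates latent TGF-beta, at 1.49 and 0.136, whereas Itga5, the alpha chain of the fibronectin receptor, was at 30.0 and 65.4. Itgav, at 40.1 and 43.6 RPKM, and Itgb1, at 319.5 and 439.0, were within 2-fold. Among elastin-degrading proteases Cela1, a pancreatic type elastase, was at 6.09 and 0.849 RPKM, while Mmp2, Mmp14 and Ctsl stayed within 2-fold and Mmp12 and Elane were listed at 0 in both libraries. Of 6 matrix partners, Fn1, the fibronectin gene, was at 663.7 and 235.5 RPKM, and Tnxb, for tenascin-X, at 0.118 and 1.96.

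**Figure D5:**
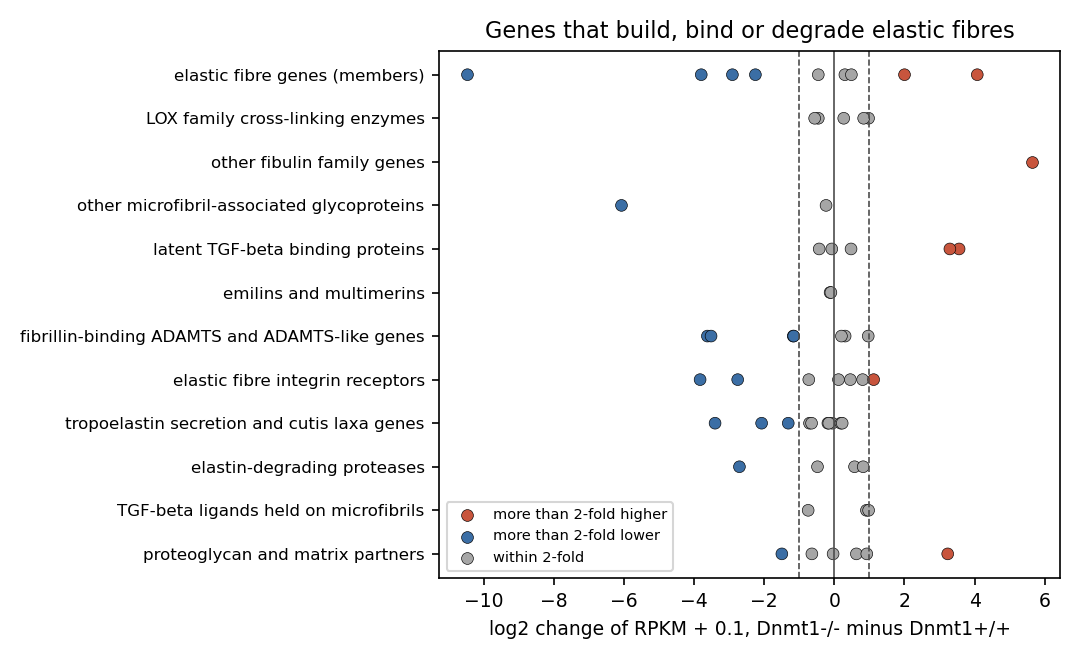
Log2 difference of RPKM + 0.1, Dnmt1-/- minus Dnmt1+/+, on the x axis, for the 9 elastic fibre genes and for the entries of 11 lists of related genes that passed the filters, 1 point for each entry. Points more than 2-fold higher are red, those more than 2-fold lower blue and the others grey; the lysyl oxidase row is grey throughout, although Lox passes 2-fold under other scalings, and Mfap2 and Fbln7 are the outermost points among the lists.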

How the data were processed

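Strand-specific mRNA-seq libraries, 1 from Dnmt1+/+ and 1 from Dnmt1-/- MEFs, were read as 50 bp single ends. Per the submitters' processing notes TopHat, Cufflinks and Cuffdiff were used with mm9, and the authors deposited RPKM values, 1 column per library, with a status for each entry. Program versions are not given in the sources used here. The members and gene lists were chosen with earlier results of these data known. The filters required a gene symbol, the status OK and 1 RPKM or more in either library, and differences were taken on the log2(RPKM + 0.1) scale. A difference above 2-fold was called, without a test. Named genes were the 10 members, genes of the lists past 2-fold and the 3 nearest genes on each side. The 5 genes nearest to Efemp1 in level were also named. Further list genes and Xist, Eif2s3y, single cell type markers, Iqsec1, M6pr, Slc2a3, Slc47a1, Vrk2 and Mapk7 were named after their values were seen. Positions and transcript lengths came from GENCODE M1 (NCBI37), whose genes overlapped 99.3% of the entries of the same symbol, and promoter sequences from RefSeq (GRCm38.p6). Library depths of about 54200000 and 59900000 reads were estimated from steps in low values. Calls and steps were tested on simulated data. Python 3.11.15, numpy 2.4.6, pandas 2.3.3, scipy 1.17.1 and matplotlib 3.10.9 were used.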

Additional observations from a re-analysis of the deposited data

How the results depend on the processing

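Other settings were pseudocounts of 1, 0.01 or none, no filter on low RPKM and a mean of at least 1 RPKM. Subtraction of the median and upper quartile scaling were also tried. Together they gave 61 values for single elastic fibre genes, and all 61 stayed on the same side of the 2-fold threshold. The filter settings change which genes are kept and not a gene's own value, so their share of the 61 could not move. The number of lower genes was 4 under each of these settings and with a 1.5-fold threshold, and 3 without Efemp1. Without a pseudocount, or with a mean of at least 1 RPKM, Mfap5 drops out, which left 1 gene higher and moved the median log2 difference to -1.45 and -1.35. No paired analysis was possible because each genotype has 1 library. A low read number limits Efemp1 in Dnmt1-/-, and a listed value of 0 limits Mfap5 in Dnmt1+/+.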
